A study of Salmo salar with 51 samples.

Results

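The 200 array probes described here were those with the smallest range over developmental time in whole Atlantic salmon (Salmo salar). They are candidates for reference genes between 2 and 89 dpf (days post fertilization). They were drawn from 43689 probes on a 44K oligonucleotide array. A probe was eligible when its Cy5 signal was at least 500 and its spot was not flagged on all 51 arrays, and 2055 probes (4.70%) met this. For each eligible probe the deposited log2 ratios of the 3 individuals per time point were averaged, and the probe was ranked by the highest minus the lowest of its 17 time point means. The 200 members are 9.73% of the eligible probes. The values that chose them are given below as a description, without a test.

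The samples were whole embryos, larvae or alevins of a single farmed stock, the McConnell (Mowi) strain, raised in fresh water with no other treatment. There were 3 individuals from each of 17 days, namely 2 dpf, then every 5 days from 5 to 35 dpf and every 6 days from there to 89 dpf. Each individual was labelled with Cy5 and hybridized beside 1 Cy3-labelled pool made from all time points, into which 2 dpf went in a smaller quantity than the others. The dyes were not swapped. Whole animals were used, so a probe with a flat ratio may still move in opposite directions in different tissues, and a change in cell number and a change in RNA per cell cannot be told apart.

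Reference genes are transcripts against which others are scaled in quantitative PCR, and the method rests on their level being steady across the samples compared. Products of basic cell maintenance, such as cytoskeletal actin, glycolytic enzymes, ribosomal components and translation factors, are the usual choices. Early fish development is a demanding setting for them, since RNA laid down by the mother is replaced by RNA of the embryo and new tissues then appear at each stage. On an array with a common reference, steadiness is also relative, because a ratio is centred on the bulk of the probes of its own array.

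No member could be named. The gene lists used here hold 4502 probes of the array that the authors called changed between neighbouring time points, and 0 of the 200 members were among them, against 561 of the 2055 eligible probes (27.3%). These lists give annotated probes only, and the one for 2 against 5 dpf was held here only in part, so the counts are lower bounds. Members are therefore given by the code of their position on the array, in which C is followed by the column and R by the row. The absence of members from these lists follows from how both were made and is not independent evidence of their steadiness.

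The lowest range belonged to C173R075. Its time point means ran from -0.16 ± 0.03 (SD, n = 3) at 5 dpf to 0.27 ± 0.06 at 2 dpf, a range of 0.44 on the log2 scale, or 1.35-fold. The values of the 3 individuals were -0.16, -0.20 and -0.14 at 5 dpf and 0.21, 0.30 and 0.30 at 2 dpf, so its extremes fell at neighbouring time points and did not overlap. From 10 to 15 dpf the means were -0.01 and -0.08, and at 20 dpf all 3 individuals were above 0, with a mean of 0.24 ± 0.09. From 25 to 77 dpf every mean lay between -0.12 and 0.03, across hatching and the absorption of the yolk sac. The means then stood at 0.16 ± 0.19 at 83 dpf and 0.14 ± 0.14 at 89 dpf. It also had the lowest spread between individuals of the same day among the 200 members, with a pooled SD of 0.15, and its single arrays spanned 0.65. Its Cy5 signal ran from 911 to 16777 over the 51 arrays, with a median of 4300.

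C073R038 ranked second with a range of 0.45. It was lowest at 53 dpf, where the individuals read -0.54, -0.02 and -0.08, and highest at 20 dpf, where they read -0.08, 0.46 and 0.31. The values at the 2 days therefore overlapped, and the pooled SD between individuals was 0.31, as wide as the member median. It was a bright probe, with a median Cy5 signal of 12663. C048R166 ranked next, with a range of 0.50 between 30 dpf (-0.44, -0.38 and -0.08) and 5 dpf (0.19, 0.44 and -0.02). C134R020 followed with 0.51, between 5 dpf (-0.30, -0.05 and -0.34) and 47 dpf (0.72, 0.15 and -0.04), and 1 of the individuals at 47 dpf stood far above the others. C142R077 had its lowest mean at 10 dpf (-0.35, -0.40 and -0.18) and its highest at 35 dpf (0.09, 0.14 and 0.37), a range of 0.51 without overlap between the 2 days. C038R117, C043R019, C196R062, C014R036 and C093R025 completed the first 10, with ranges from 0.52 to 0.57. In 4 of these first 10 probes the lowest mean fell at 5 dpf, and no other day was the lowest in more than 2 of them.

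Among all members the range ran from 0.44 to 1.06 with a median of 0.88, which is a 1.84-fold difference between the highest and the lowest time point. The eligible probes had a median range of 1.91 (3.75-fold) and a highest range of 6.03, and 949 of them (46.2%) had a range of at least 2. The middle 50% of the members lay between 0.77 and 0.998. Of the members, 13 had a range under 0.6 and 150 a range under 1. Between its lowest and highest day the steadiest probe thus differed by 1.35-fold and the last member by 2.08-fold.

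The list has no natural end. Its last 3 members were C105R106, C229R140 and C259R153, each with a range of 1.06, and the 3 eligible probes just outside were C028R147, C121R161 and C135R026, with 1.06 each. The gap between C259R153 and C028R147 was 0.000157. Within 0.05 of the last member lay 45 members on the inner side and 40 eligible probes on the outer side. C259R153 read -0.57, -0.58 and -0.82 at 5 dpf and 0.82, 0.32 and 0.07 at 30 dpf, and C028R147 read -0.29, -0.90 and -0.90 at 5 dpf and 0.63, 0.39 and 0.06 at 65 dpf. Both were lowest at the gastrula stage. The values of their extreme days did not overlap, which picking the extremes favours. The requirement on signal and flags removed 1255 further probes whose range was no wider than that of the last member.

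The days on which a member's mean was highest or lowest were most often 2 and 5 dpf. Both days, like 10 dpf, had needed further extractions and labelling, and the part of this preparation was not tested. The highest or the lowest mean fell at 2 dpf in 63 members (31.5%) and at 5 dpf in 56 (28.0%), beside 49.7% and 35.8% of the eligible probes. At 83 dpf it did so in 36 members (18.0%), beside 19.5% of the eligible probes, and this was the most frequent extreme day after 5 dpf. The median distance of a member's mean from 0 was 0.28 at 2 dpf. It stood at 0.25 at 5 dpf, 0.22 at 10 dpf and 0.12 at 59 dpf. The eligible probes started from 0.82 at 2 dpf, through 0.75 at 5 dpf and 0.59 at 10 dpf, and stood at 0.21 at 59 dpf. The 2 groups were closest at 41 dpf, just after hatching, with 0.14 and 0.16. From 30 to 53 dpf the medians of the 2 sets lay within 0.12 to 0.20, whereas at 15 dpf they were 0.18 and 0.34.

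Between consecutive days the widest median step of the members was that from 2 to 5 dpf, from the blastula to the gastrula, at 0.30, where 77 members were higher and 123 lower at 5 dpf. The median step of the eligible probes there was 0.92. The narrowest was that from 71 to 77 dpf, at 0.13. Individual members moved further, up to 1.03 between 2 and 5 dpf. In the deposited values, which chose the members, averaging the members cancelled most of this. The mean of the 200 ran from -0.09 at 5 dpf to 0.07 at 35 dpf. Over single arrays it ran from -0.13 to 0.13, beside -0.24 to 0.28 for the mean of all eligible probes. The mean of the first 10 ran from -0.10 to 0.10 by time point but from -0.37 to 0.30 over single arrays. A flat average depended on the normalization. In ratios only centred on the median of their array, the mean of the 200 ran from -0.77 at 2 dpf to 0.36 at 10 dpf.

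The arrays of individuals of the same day spread almost as widely in the members as in other probes. The pooled SD between individuals ran from 0.15 in C173R075 to 0.53 in C041R043, with a median of 0.31, beside a median of 0.34 in the eligible probes. C041R043 read -1.33, -0.41 and 0.00 in the 3 individuals of its lowest day (25 dpf) and 0.58, 0.38 and -0.02 in those of its highest (83 dpf), a wide spread between single arrays. The range of the means was a median of 2.78 times the pooled SD in the members and 5.53 times in the eligible probes.

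The members were somewhat dimmer than the eligible probes, with a median Cy5 signal of 3635 beside 4215. When the eligible probes were divided by brightness into 5 classes of 411, the members numbered 51, 48, 47, 32 and 22 from the dimmest class to the brightest. The brightest was C235R089, with a median signal of 26722 and means from -0.49 ± 0.17 at 2 dpf to 0.52 ± 0.54 at 15 dpf. The dimmest was C215R160, with a median of 1356.5, whose highest mean at 30 dpf came from individuals at 1.51, 0.48 and -0.19. The Cy5 signal reached 60000 on some array in 1 of the 200 members and in 46 of the 2055 eligible probes, a level near the top of the scanner's scale. The signal of a steady ratio was itself far from constant, since members varied from 4.77-fold to 38.7-fold in Cy5 over the 51 arrays. The median signal of the members was 2988 to 13000 on the 24 arrays of slides 1 to 6 and 1079.75 to 4508 on the 27 arrays of slides 7 to 14. All arrays of 2 dpf lay on slides 7 to 14 and all of 10 dpf on slides 1 to 6. Slide and day therefore cannot be fully told apart in this difference.

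A limma moderated F test over the 17 time points called 68 of the 200 members, beside 87.3% of the 20964 probes tested, with a threshold of 0.05 on p-values adjusted by Benjamini and Hochberg. Since the members were chosen on these means, nothing is read from the lower count. The 3 with the largest F are given by their values alone. C022R081 had 0.58, 0.43 and 0.54 at 2 dpf and -0.91, -0.47 and -0.16 at 15 dpf. C135R147 was lowest at 2 dpf (-0.90, -0.43 and -0.81) and highest at 47 dpf (-0.03, 0.35 and 0.27). C081R110 was lowest at 5 dpf (-0.44, -0.86 and -0.61) and highest at 59 dpf (0.31, 0.50 and 0.33). Their pooled SDs between individuals were 0.22, 0.21 and 0.21. A low spread between individuals raises F, so this follows in part from how the 3 were picked. The smallest F was that of C048R166, and a probe that was not called is not thereby shown to be constant. The count fell to 16 without 2, 5 and 10 dpf, where 45.5% of all tested probes were called. Without replicate 1, 2 and 3 it fell to 43, 3 and 21, beside 80.4%, 71.6% and 76.7% of all tested probes. The pooled SD between individuals had medians of 0.28, 0.32, 0.33 and 0.32 in consecutive blocks of 50 members down the ranking.

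Whether the ranking carried over to individuals it had not used was examined by choosing 200 of the eligible probes on 2 replicate numbers and measuring their range over the 17 single arrays of the remaining number. With replicate 3 left out the chosen probes had a median range of 1.17 in it, beside 2.06 for all eligible probes, and 200 of 200 lay below the eligible median. With replicate 2 left out the median was 1.18 beside 2.06, and 199 lay below. With replicate 1 left out it was 1.499 beside 2.28, and 193 lay below. Of the 200 chosen, 86, 106 and 107 were also among the 200 smallest ranges of left-out replicates 1, 2 and 3, where 200 probes are 9.73% of those eligible. Eligibility and the median of 0 for each probe had been set with all 51 arrays, and the fish shared a stock and their rearing, so these are further individuals and not a further experiment.

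The slide on which an array lay was not used by the rule. With time point in the design, a limma moderated F test over the 14 slides called 3.17% of the 20948 probes tested at an adjusted p under 0.05. Among the eligible probes it called 167 (8.13%) and among the members 21 (10.5%). The difference between these shares was not tested. The strongest calls were C234R159 and C229R140 (adjusted p = 0.013 for both, limma F test) and C168R032 (adjusted p = 0.016, limma). On the 4 arrays of slide 8, C234R159 stood 0.52 to 0.83 above the loess means of its time points and C229R140 0.52 to 0.98 above, whereas the deviations of C168R032 lay between -0.77 and -0.27. In all, 116 members were called neither over time nor over slides, and 5 were called in both tests. The shares of all tested probes are not given for these counts. Since the members were chosen on the time point means, nothing is read from the count called in neither. Of the first 20 members only C084R114 was called over slides (adjusted p = 0.031, limma). The slide count was 0 without replicate 1, 2 or 3, 0 without 2, 5 and 10 dpf and 0 with a replicate block. Of all tested probes, 0, 0 and 3 were called without replicate 1, 2 and 3. Another 13 were called without the early days and 0 with the block, so these counts were not particular to the members.

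The members called over slides split by where they lay on the array, a feature noticed after their values had been seen. In 12 of the 21, replicate 1 was the highest of the 3 individuals at more time points than it was the lowest, and these 12 lay in columns 188 to 240. In the other 9, replicate 1 was more often the lowest, and these lay in columns 80 to 168. Of the 17 replicate 1 arrays 14 were on slides 7 to 14. Over all members, the mean of replicate 1 minus that of replicates 2 and 3 was above 0 in 43 of the 43 that lay in columns 201 to 266, with a median of 0.34, and in 56 of the 157 in columns 1 to 200. The feature was not particular to the members, since the 505 eligible probes of the right-hand columns had a median of 0.30 and the 5329 tested probes there a median of 0.21, against -0.17 in the tested probes of columns 101 to 150. Ratios normalized here by loess gave 0.22 and -0.16 for these 2 sets of tested probes.

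Array by array, the right-hand members stood 0.46 to 0.83 above the left-hand ones on the 4 arrays of slide 8 and 0.23 to 0.41 above on the 3 of slide 10, each taken as deviations from the time point means. On the 3 arrays of slide 7, all replicate 1, the difference lay between -0.09 and 0.07, so replicate 1 arrays did not all show it. On slide 9, with 2 arrays of replicate 1 and 1 of replicate 2, the difference lay between 0.09 and 0.71, and on slide 6, with 4 arrays of replicate 3, between -0.69 and -0.02. On slide 13 the difference lay between -0.52 and -0.10, and on slide 3 the difference lay between -0.13 and 0.03. The 3 arrays of a day share 1 mean, so a high value on 1 array lowers the deviations of the others. At 15 dpf the differences were 0.66 on slide 8, -0.02 on slide 11 and -0.69 on slide 6. At 41 dpf they were 0.53 on slide 8, 0.09 on slide 9 and -0.52 on slide 13. The slides are therefore not separate observations. All tested probes differed by 0.43 to 0.71 on slide 8. The pooled SD between individuals was a median of 0.39 in the right-hand members and 0.29 in the left-hand ones, beside 0.41 and 0.32 in the eligible probes of the same columns. Right-hand probes were 43 members of 505 eligible (8.51%) and left-hand ones 157 of 1550 (10.1%). The part of array position in the spread of single members was not tested.

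Whether probes of well known genes are among the members cannot be decided here. Every name comes from a list of probes called changed, and these lists held no member. Other probes of the same genes may be present without a name, so the ranks below describe the named probes only. The reference gene list, which covers actin, glycolytic, ribosomal, tubulin, RNA polymerase II, proteasome beta subunit and similar genes, matched 60 named probes of 25 symbols, of which 6 were eligible. PSMB2, a subunit of the proteasome, the complex that degrades tagged proteins, was the steadiest of these, at rank 302 with a range of 1.18 (2.27-fold) between 5 and 10 dpf. TUBB3, a beta tubulin, ranked 758 with 1.67. The 2 eligible probes of TUBA1C, an alpha tubulin, ranked 1338 and 1345 with 2.25 and 2.26, and PSMB6, another proteasome subunit, ranked 1448 with 2.38. EIF3E, a subunit of a translation initiation factor, ranked 1816 with 3.09 and was lowest at 2 dpf. The other 54 failed the eligibility rule, 50 of them on signal. Among these, the narrowest ranges included 1.12 in 1 of the 3 probes of GUSB, a lysosomal enzyme, which fell under 500 on 2 arrays. That probe was highest at 2 dpf, whereas the other GUSB probes were lowest there and had ranges of 4.37 and 3.94. SDHA, a subunit of a mitochondrial dehydrogenase, had a range of 1.54 and failed on flags. The 2 probes of beta actin (actb) had ranges of 2.80 and 2.71 with opposite signs at 2 dpf, the probes of gapdh, a glycolytic enzyme, 5.27 and 4.30, and that of eef1as, an elongation factor of translation, 4.04. The 17 probes of b2m, the light chain of MHC class I, ran from 3.01 to 6.37. The probes of actb, gapdh, eef1as and b2m fell under 500 on some array, which no member did.

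The named eligible probe closest to the list was that of Tomm7, part of the import pore of the mitochondrial outer membrane, at rank 210 with a range of 1.07. It was followed by TPD52L2 at rank 212 (1.07), ndfip1, an adaptor of ubiquitin ligases, at 241 (1.11), MEF2C, a transcription factor of muscle, at 266 (1.14), and ran, the small GTPase of nuclear transport, at 278 (1.15). These were picked out after their ranks had been seen. Functional lists matched by symbol held 0 members each, as the sources used here gave no symbol for any member. The named eligible probes had a median range of 2.46, beside 1.73 in the eligible probes outside the gene lists. All named probes had been called changed by the authors, so list medians do not describe how steady a class of genes is. The 12 lists with any named eligible probe had medians from 1.76 for 12 probes of the mitochondrial ribosome to 3.63 for 2 of the transcription machinery. Between these lay 1.81 for 16 proteasome probes, 1.87 for 18 of vesicle traffic, 2.78 for 18 of oxidative phosphorylation, 2.90 for 18 of translation factors and 3.11 for 9 of nuclear transport.

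The membership changed most, among the rankings tried, when the loess correction was left out. When ratios were only centred on the median of their array, with no correction for brightness, 39 of the 200 members remained among the 200 smallest ranges, and 0 of the first 20. In these ratios, unlike the deposited values, probes were not also centred on their own median over the arrays. The members' own medians, 0 in the deposited values, had a median of -0.16 here. Levels in both sets of values are therefore not on the same scale, whereas the range of a probe is unaffected. With median centring the first 20 stood at a mean of -1.004 at 2 dpf and 0.29 at 10 dpf, against -0.06 and 0.01 in the deposited values. The median of all tested probes moved in the same way, to -0.88 at 2 dpf and 0.21 at 10 dpf, and the first 20 lay close to it at both. Their ranges in these ratios ran from 1.003 to 1.93, and the 200 smallest ranges of eligible probes then ended at 0.99. At 35 dpf the first 20 stood at -0.58 and all tested probes at -0.47, and at 77 dpf at -0.49 and -0.33, whereas in the deposited values the mean of the first 20 stayed between -0.09 and 0.09 on all 17 days. The lowest mean of 16 of these 20 fell at 2 dpf, beside 3 in the deposited values. When 2 dpf was left out of both rankings, the 200 smallest of the deposited values and the 200 smallest of the median-centred ratios shared 55 probes. Loess ratios computed here from the intensities kept 170 members and all of the first 20, and quantile-normalized Cy5 alone kept 130 and 19 of the first 20.

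Only 2 members, C234R159 and C083R121, were kept in all 13 other rankings, 72 were kept in at least 10 and 53 in at most 5. The ranking with a minimum Cy5 of 1000 could not keep the 127 members that fell under 1000 on some array. C083R121 ranked 67 with a range of 0.82, read -0.74, -0.38 and -0.74 at 5 dpf, and lay between -0.20 and 0.20 at every mean after 10 dpf. Its pooled SD was 0.20 and it was not called over slides (adjusted p = 0.59, limma F test), but it was among the 68 members called over time. C234R159, the other one, had a range of 0.65 and the strongest slide call of all members, and its individuals read 0.97, 0.20 and -0.73 at 41 dpf around a mean of 0.15. C173R075, with the smallest range both of means and of single arrays, was kept in 11 of the 13.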

How the data were processed

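The authors quantified 51 scanned arrays in ImaGene and deposited, per spot, a background-corrected median intensity on a linear scale in each channel and a flag. The method of background correction is not given in the sources used here. The authors also deposited log2 ratios. In GeneSpring, signals under 1 were set to 1, Lowess normalization was run within arrays and each probe was centred on its median over all arrays. Time point and replicate came from the sample labels and slide from the array names, 14 slides with 3 or 4 arrays each. The deposited ratios correlated with log2 Cy5 over Cy3 of the same array with a median r of 0.974 (lowest 0.836, across probes), so a higher value means more Cy5. Array medians of Cy5 lay between 124.5 and 601, and array number limits the precision.

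Members were ranked on the deposited log2 ratios. For F tests, log2 ratios were computed from intensities (values under 1 set to 1), 1531 control spots were left out, flagged spots had weight 0, and loess (span 0.3, 4 iterations) was run in limma 3.58.1 under R 4.3.3. Probes were tested if, at some time point, none of the 3 arrays had a flagged spot or a Cy5 signal under 500, with Benjamini-Hochberg adjustment over all of them. Rankings were computed in Python 3.11.15 with pandas 2.3.3. The fit was tested on simulated data. Alternatives covered normalization, filters, flags, time points, replicates and blocks. Named probes were the first 10 and last 3 members, the 3 just outside, extremes of signal, spread and F, and eligible reference gene probes. Also named were some reference gene probes that failed the eligibility rule and the named eligible probes closest to the list. So were C084R114, called over slides, and the members kept in all other rankings. The members and lists were chosen with earlier results of these data known. Fold changes and p-values of the authors' own comparisons, in their supplementary lists, were not used, and only the pairing of probes with names was taken from them.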

Additional observations from a re-analysis of the deposited data

How the results depend on the processing

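Of the 200 members, 39 were kept by median centring, 53 by median centring without 2 dpf (chosen after seeing the data), 130 by quantile-normalized Cy5 alone, 73 with a minimum Cy5 of 1000 in place of 500 (602 candidates; 127 members fell under 1000 on some array), 79 with a minimum of 200 (6719 candidates), 123 with spot flags ignored (3481 candidates), 107 without 2 dpf and 73 without 2, 5 and 10 dpf. Loess ratios, the SD of the means and the range over single arrays kept 134 to 170, and leaving out replicates 1 to 3 kept 151 to 163. The median range of the members stayed between 0.71 and 1.03, except for 1.32 with median centring. With the changed filters on signal and flags the ranges themselves were the same. At a minimum of 1000 the members lost were those under 1000 on some array. With a minimum of 200 or flags ignored, members were lost only to added candidates with smaller ranges. The cause of the other losses was not tested.

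The 68 members called over time became 16 without 2, 5 and 10 dpf, beside 45.5% of all tested probes. They became 3 to 43 when a replicate was left out, beside 71.6% to 80.4%. There were fewer arrays in each of these settings. Under the other settings 49 to 95 members were called, beside 48.5% to 92.5% of the probes tested. With a replicate block 95 members were called over time, beside 88.7% of all tested probes. Over slides the block left 0 members called, and 0 of the 20891 probes tested. The 21 members called over slides became 118 with median centring (59.0%), 62 with Cy5 alone (31.0%) and 76 when only eligible probes were tested (38.0%). Of all eligible probes 57.5%, 29.7% and 35.7% were called there, so the rises were not particular to the members. The count was 0 without 2, 5 and 10 dpf (chosen after seeing the data) and 0 to 0 when a replicate was left out. Among all tested probes 13 were called without these days, and 0, 0 and 3 without replicate 1, 2 and 3. At these counts of 0 in limma, unadjusted p was under 0.05 in 25 members with the replicate block, 63 without the 3 early days, and 0, 8 and 7 without replicate 1, 2 and 3. Replicate numbers were not shown to pair the samples. Deviations of same-numbered arrays correlated over 0.1 in 212 of 408 pairs. The share among other pairs is not given, so this count cannot decide whether they pair. As a hint from the data, the median r was 0.105 for the same number and -0.05 for other numbers, and 33 of 51 arrays were closest to their own number. Deviations within a day are taken from a shared mean, so these medians are linked and not separate observations. Replicate number also overlaps slide, with 14 of the 17 replicate 1 arrays on slides 7 to 14, so replicate block and slide cannot be fully told apart. The left-out replicate's median range was 1.499 holding out replicate 1, beside 1.18 as the middle of the 3. Ranges of other probes of the members' genes were not computed, as the sources used here gave no gene name for any member.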
